A study of Homo sapiens with 6 samples.

Results

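The microRNAs of the miR-23/27/24 clusters come from a pair of related loci, MIR23A, MIR27A and MIR24-2 on chromosome 19, and MIR23B, MIR27B and MIR24-1 on chromosome 9. The 10 mature arms analysed here were taken by name from the small RNA counts, out of 28846 small RNAs and 2596 microRNAs listed. They were measured in K562, an established erythroleukemia cell line with erythroid and megakaryocytic potential. Control cells carried the lentiviral vector SIEW, which expresses GFP only, and RUNX1 cells carried SIEW RUNX1, which expresses human RUNX1 together with GFP. Each condition had 3 libraries, made from 1000 ng of total RNA taken 10 days into culture. All values thus come from 1 cell line with RUNX1 supplied by a vector, and the RUNX1 mRNA was not read by the small RNA libraries, so it could not be used here to check the labels.

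A microRNA hairpin is cut by Drosha and Dicer into a duplex of a 5p and a 3p arm. Usually 1 arm, the guide, is loaded into Argonaute and pairs through its seed, bases 2 to 8, with target mRNAs, while the other arm is degraded. In these clusters the 3p arms of miR-23, miR-27 and miR-24 are the known guides. Their hairpins are transcribed together as a primary transcript from each locus. miR-27 is known to act on the RUNX1 mRNA, miR-23 on glutaminase and miR-24 on the activin receptor ALK4, through which it restrains erythropoiesis.

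The sequences show which members can act alike and which reads can be told apart. They are the RefSeq mature sequences, 5′ to 3′, with the seed in capitals. The prefix hsa, for human, is left out of the names in the text that follows wherever a member has been named in full.
hsa-miR-23a-3p: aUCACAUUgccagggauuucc
hsa-miR-23b-3p: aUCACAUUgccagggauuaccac
hsa-miR-27a-3p: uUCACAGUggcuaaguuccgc
hsa-miR-27b-3p: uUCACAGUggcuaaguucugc
hsa-miR-24-3p: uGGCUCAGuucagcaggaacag
hsa-miR-24-2-5p: uGCCUACUgagcugaaacacag
hsa-miR-24-1-5p: uGCCUACUgagcugauaucagu
hsa-miR-23a-5p: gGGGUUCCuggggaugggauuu
hsa-miR-27a-5p: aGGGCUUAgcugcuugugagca
hsa-miR-27b-5p: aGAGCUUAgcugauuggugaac

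miR-23a-3p and miR-23b-3p have the same seed, and so do miR-27a-3p and miR-27b-3p. Counted from the 5′ end, miR-23b-3p differs from miR-23a-3p by U19A and by 2 extra bases at its 3′ end, and miR-27b-3p differs from miR-27a-3p by C19U. A read that ends within the first 18 bases therefore cannot tell the paralogs apart. The passenger arms of miR-24 share their first 15 bases, with A16U as the first difference. By contrast, the 5p arms of miR-27 differ at 8 positions, from G3A onwards, and have different seeds.

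On GRCh38, MIR23A lies at chr19:13836587-13836659, MIR27A at chr19:13836440-13836517 and MIR24-2 at chr19:13836287-13836359, all on the minus strand. In GENCODE 29 the 3 hairpins lie in an exon of the antisense transcript AC020916.1, which RefSeq names MIR23AHG, with 69 bases between the first and the second hairpin and 80 between the second and the last. On chromosome 9, MIR23B lies at chr9:95085208-95085304, MIR27B at chr9:95085445-95085541 and MIR24-1 at chr9:95086021-95086088, on the plus strand of the aminopeptidase gene C9orf3 (AOPEP). MIR23B and MIR27B are intronic there, and MIR24-1 overlaps an exon of at least 1 annotated C9orf3 transcript.

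hsa-miR-24-3p, the guide that both loci encode, was nearly absent from the counts. It had 0, 1 and 1 counts in control replicates 1, 2 and 3 and 7, 7 and 4 counts in RUNX1 replicates 1, 2 and 3. No control library thus reached the counts of any RUNX1 library, but all values were so low that the arm failed the filter on low counts, and no fold is given. The hairpins show why its origin cannot be read from the sequence, since the mature arm (capitals) is the same in both.
MIR24-2: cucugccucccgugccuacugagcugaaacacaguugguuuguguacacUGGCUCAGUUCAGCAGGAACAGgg
MIR24-1: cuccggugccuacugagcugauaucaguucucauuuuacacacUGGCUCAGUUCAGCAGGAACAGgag

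Other arms with identical copies were mostly low as well. Of the microRNA names in the files, 2262 matched RefSeq mature arms. Among those that RefSeq places at 2 or more loci, 15 of 136 passed the count filter and 1 had a mean above 100 CPM, against 505 of 2126 and 114 for the arms with 1 locus. let-7a-5p, with 3 loci, had 9 to 69 counts per library, and miR-16-5p, with 2 loci, had 10 to 102. miR-103a-3p, with 2 loci, had 57 to 559 counts, and miR-92a-3p, also with 2 loci, stood far higher with 54016 to 222143. Most names in both sets were hardly counted, with median levels of 0 CPM at 2 or more loci and 0.07 CPM at 1 locus. The sets were not matched for expression. How reads with several matches were treated is not given in the sources used here, so the count of miR-24-3p is no measure of its level in these cells. The MIR24 hairpins are followed below through their 5p arms, which differ between the loci.

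Total counts ranged from 1618248 to 15245007 per library, so that 3 counts, taken as the detection floor, corresponded to 0.26 to 1.43 CPM. CPM is the count scaled to a fixed library total with TMM factors, which treat the bulk of the small RNAs as level between libraries. MicroRNAs took 81.4% to 82.1% of the counts in control and 89.5% to 91.9% in RUNX1 libraries. Of the 947 small RNAs tested with edgeR, 28% were up-regulated and 29.6% down-regulated at the study's thresholds, which ask for P below 0.05 together with a log2 fold change past -0.5 or 0.5. Among the 598 tested microRNAs these shares were 33.4% and 22.6%, and for 64.8% of all tested small RNAs the libraries of the conditions did not overlap. With so many altered, the size of each change depends on the scaling. Scaling to library size alone moved the median log2 fold change of all tested small RNAs from -0.06 to -0.76. RUNX1 replicate 3 lay nearest to the control mean of the RUNX1 libraries for 66.4% of the 545 altered small RNAs, and for 7 of the 9 tested members. Of the erythroid microRNAs used to check K562 identity (miR-451a, both arms of miR-144 and miR-486-5p), 1 of 4 was up-regulated and 3 down-regulated, and their summed level was 4427 to 5062 CPM in control and 2332 to 3696 CPM in RUNX1 libraries.

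After RUNX1 over-expression the guide arms of miR-23 and miR-27 and the passenger arm of MIR24-2 were up-regulated, while the passenger arms of miR-27 were not. Of the 9 members that passed the count filter, 7 were up-regulated and none was down-regulated, and for 8 the libraries of the conditions did not overlap. These counts include miR-24-1-5p, which passed the filter only through its RUNX1 libraries, so that a higher level there was a condition of its being tested. With at least 10 counts asked of every library this arm was not tested, and 6 of the remaining 8 were up-regulated and none down-regulated. With library size only, 3 were up-regulated and 2 down-regulated: the calls of miR-27a-3p, miR-27b-3p, miR-23b-3p and miR-23a-5p were lost, at log2 fold changes of 0.18, 0.27, 0.40 and -0.10, and miR-27a-5p and miR-27b-5p were called at -1.19 and -1.27. The median log2 fold change of the 9 with TMM scaling was 0.97, beside -0.06 for all tested small RNAs and 0.11 for all tested microRNAs. This distance of 1.04 between the members and all small RNAs stayed between 0.97 and 1.17 across the filters, fits and left-out replicates. A change of scaling shifts all log2 fold changes nearly alike, so the distance is no test of the scaling. The median of the 9 includes miR-24-1-5p, and with at least 10 counts in every library the distance was 1.00. Together the 10 arms took 1.61% ± 0.0311 of the microRNA counts in control and 1.76% ± 0.0387 in RUNX1 libraries (SD, n = 3 per condition), which differ by 0.149 percentage points. The two-sided exact permutation test gave p = 0.1, which is the limit of the design with 3 libraries per condition. The same total also holds miR-10a-5p, which rose by 2.83 on the log2 scale, and without its counts the difference in share was 0.776 percentage points.

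**Figure D1:**
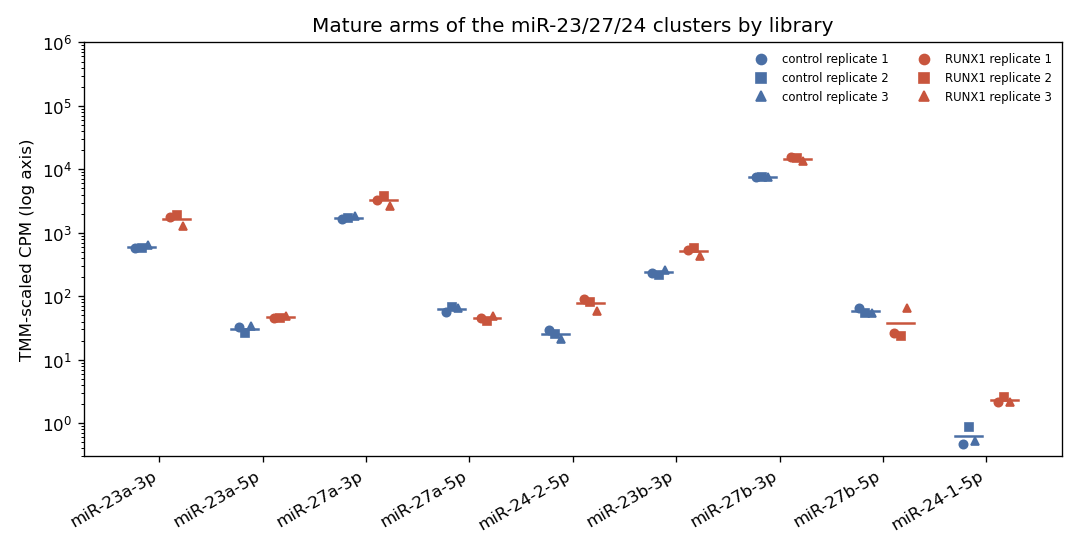
Level of the 9 tested arms in each library, as TMM-scaled CPM on a log axis, with control in blue, RUNX1 in red, a marker shape per replicate number and a bar at the mean of 3. miR-27b-3p stands highest at 7469 to 15919 CPM and miR-24-1-5p lowest at 0.478 to 2.56 CPM, and miR-27b-5p is the only arm whose conditions overlap.

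The guide of miR-27b was the member with the most counts, 69.99% to 74.8% of those of the 10 arms in every library. This total holds hardly any counts of miR-24-3p, whose level in these cells is not known. hsa-miR-27b-3p, which is also known to act on PPARG, had 7532, 7469 and 7656 CPM in control replicates 1, 2 and 3 and 15919, 14907 and 13591 CPM in RUNX1 replicates 1, 2 and 3. The lowest RUNX1 library stood well above the highest control library. Its log2 fold change was 0.97 (standard error 0.114, 95% interval 0.71 to 1.23, adjusted p = 9.26e-05 by edgeR's quasi-likelihood test). A predicted microRNA entry on chromosome 9, novelmirna_chr9_97847787_97847807_plus, had the same log2 fold change and standard error to these digits. Whether both entries hold the same reads was not tested. The predicted entry is part of the microRNA totals behind the shares.

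hsa-miR-27a-3p, its paralog with the same seed, had 1668, 1723 and 1814 CPM in control libraries and 3293, 3746 and 2659 CPM in RUNX1 libraries. Again no library overlapped, and RUNX1 replicate 3 was the lowest of its group. The log2 fold change was 0.90 (95% interval 0.57 to 1.23). The miR-27 guides thus rose by factors of 1.86 (miR-27a-3p) and 1.96 (miR-27b-3p). Within a library, miR-27a-3p made up 18.1% to 19.2% of the counts of both miR-27 guides in control and 16.4% to 20.1% in RUNX1 libraries. The log2 ratio of miR-27a-3p to miR-27b-3p moved by -0.08 (exact permutation test, p = 0.5), with RUNX1 libraries on either side of the control libraries.

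The miR-23 guides were less abundant than the miR-27 guides of the same locus. hsa-miR-23a-3p had 579.9, 585 and 632 CPM in control and 1805, 1883 and 1265 CPM in RUNX1 libraries. This was a rise by 1.46 on the log2 scale (95% interval 1.09 to 1.84, adjusted p = 7.81e-05 by edgeR). hsa-miR-23b-3p had 234, 220 and 260 CPM in control and 539, 568 and 435 CPM in RUNX1 libraries, a log2 fold change of 1.11 (95% interval 0.78 to 1.44). The fitted change of miR-23a-3p was the largest of these 4 guides, with an interval that overlaps those of the others. For both, the lowest RUNX1 library was above every control library, and replicate 3 was the lowest of the RUNX1 libraries.

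**Figure D2:**
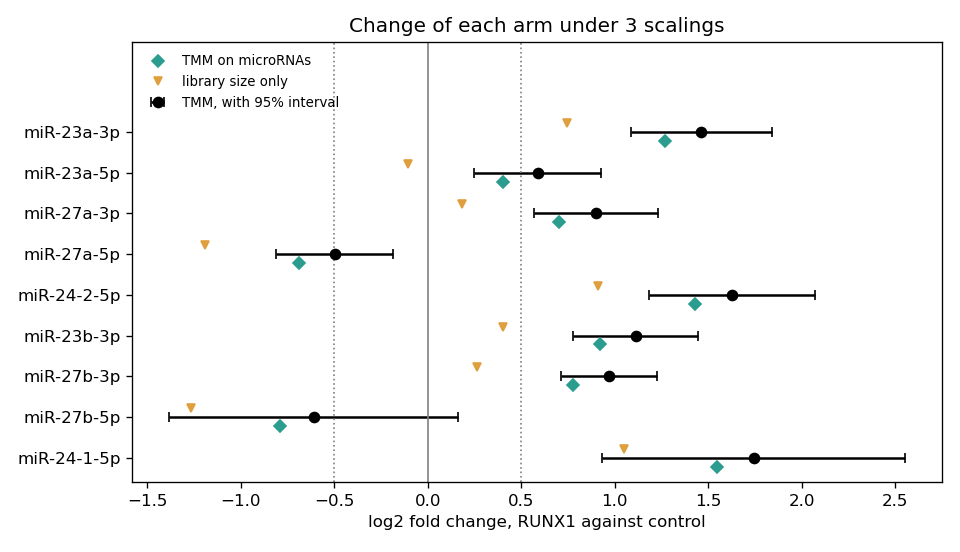
Log2 fold change of the 9 tested arms, RUNX1 against control, with TMM scaling and its 95% interval (black), TMM factors from microRNAs only (green) and library size only (orange), and dotted lines at -0.5 and 0.5. The guide arms of miR-23 and miR-27 and both miR-24 passenger arms lie right of 0 under all 3 scalings, the miR-27 passenger arms left of it, and miR-23a-5p changes side with library size only.

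The order of levels differed little between the conditions. In control libraries miR-27b-3p was followed by miR-27a-3p, miR-23a-3p and miR-23b-3p, with no overlap between neighbours. Below them, miR-27a-5p at 57.4 to 66.6 CPM and miR-27b-5p at 54.7 to 65.0 CPM did not differ beyond their spread, nor did miR-23a-5p at 26.2 to 34.2 CPM and miR-24-2-5p at 21.6 to 29.2 CPM. In RUNX1 libraries miR-24-2-5p had moved above miR-23a-5p and miR-27a-5p, without overlap. The arms are 21 to 23 bases long, so no length scaling was applied, but adapter ligation favours some small RNAs over others and the order of counts need not be the order of amounts.

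The passenger arms of MIR24-2 and MIR24-1 were both higher in RUNX1 libraries. hsa-miR-24-2-5p had 29.2, 25.3 and 21.6 CPM in control and 91.0, 80.4 and 59.7 CPM in RUNX1 libraries, a log2 fold change of 1.63 (95% interval 1.18 to 2.07). hsa-miR-24-1-5p was counted only 1, 7 and 4 times in control libraries and 25, 16 and 15 times after RUNX1 over-expression. Both rose in every RUNX1 library above every control library, yet the change of miR-24-1-5p is imprecise, with a log2 fold change of 1.74 and a 95% interval from 0.93 to 2.55, and it had to be higher with RUNX1 to pass the filter. The log2 ratio of the pair was 5.11 ± 0.303 in control and 5.01 ± 0.327 in RUNX1 libraries (SD, n = 3 each; exact permutation test, p = 0.8), and the sign of this difference turned without control replicate 1 (0.03) or RUNX1 replicate 3 (0.04). Most countable MIR24 passenger reads thus came from the chromosome 19 locus in both conditions. miR-24-1-5p shares 19 bases, on the opposite strand, with miR-3074-3p, an arm of the antisense hairpin MIR3074. The counts of miR-3074-3p were 13, 57 and 45 in control libraries and 128, 75 and 50 in RUNX1 libraries, with a log2 fold change of 0.65 (95% interval 0.10 to 1.20). The use of strand in the counting is not stated, so reads of these overlapping arms cannot be told apart with certainty.

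The passenger arms of miR-27 did not follow their guides. hsa-miR-27a-5p had 57.4, 66.6 and 65.8 CPM in control and 45.6, 40.8 and 48.6 CPM in RUNX1 libraries. All RUNX1 libraries were below all control libraries, with a P-value of 0.00557, but the log2 fold change of -0.498 (95% interval -0.81 to -0.19) fell just short of the fold threshold. Without control replicate 1 it was -0.53 and passed.

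hsa-miR-27b-5p had 65.0, 54.7 and 55.3 CPM in control and 26.5, 23.7 and 64.2 CPM in RUNX1 libraries. RUNX1 replicates 1 and 2 lay below every control library, and replicate 3 lay among them. Its log2 fold change was -0.61 (95% interval -1.38 to 0.16, adjusted p = 0.153 by edgeR). Without RUNX1 replicate 3 it was -1.10 and passed the thresholds, and without RUNX1 replicate 1 or 2 it was -0.39 or -0.34 and did not. hsa-miR-23a-5p, with 32.5, 26.2 and 34.2 CPM in control and 46.0, 44.9 and 48.1 CPM in RUNX1 libraries, rose by 0.59 on the log2 scale (95% interval 0.25 to 0.93). Its call was lost without control replicate 2, at 0.46, with TMM factors from microRNAs only, at 0.40, and with library size only, at -0.10. miR-23b-5p, the remaining arm of MIR23B, was counted 2, 12 and 19 times in control libraries and 7, 3 and 2 times in RUNX1 libraries. It failed the count filter, although its CPM was lower in every RUNX1 library, and the fit without that filter gave a log2 fold change of -1.80 (adjusted p = 0.0107 by edgeR).

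The ratio of the 3p arm to the 5p arm of a hairpin compares reads within a library and needs no scaling. miR-27b-3p outnumbered miR-27b-5p by log2 ratios of 6.85, 7.09 and 7.11 in control and 9.23, 9.29 and 7.72 in RUNX1 libraries. The log2 ratios of miR-27a, in the same order of replicates, were 4.86, 4.69 and 4.78 without and 6.17, 6.52 and 5.77 with RUNX1. In all 3 hairpins with both arms tested, MIR23A, MIR27A and MIR27B, every RUNX1 library had the higher ratio.

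The mean log2 ratio rose by 1.73 for miR-27b, by 1.38 for miR-27a and by 0.85 for miR-23a (two-sided exact permutation test, p = 0.1 each, the smallest possible with 3 against 3, and 0.2 after adjustment over the 12 ratios compared). Of all 144 microRNAs with both arms tested, the ratio was higher in every RUNX1 library than in every control library for 25.7%, and the median change was -0.01. In the order of rises among these 144, miR-27b stood at place 8, miR-27a at place 17 and miR-23a at place 26. Markers of other cell types moved in the same libraries. The summed level of the 8 muscle and stromal microRNAs was 71.0 to 75.3 CPM in control and 1957 to 2161 CPM in RUNX1 libraries, with 3 of 3 tested up-regulated. Most of the sum was miR-145-5p in control (mean 54.5 CPM) and miR-143-3p in RUNX1 libraries (mean 1985 CPM). miR-206 and miR-199a-5p were at 0 in all libraries. The 5 epithelial ones stood at 54.5 to 63.2 CPM and 165 to 179 CPM, with 3 of 4 tested up-regulated, among them miR-205-5p. miR-1, of the muscle and stromal list, and miR-205-5p passed the count filter only through their RUNX1 libraries. A higher level there was thus a condition of their being tested. Among all tested microRNAs, 33.4% were up-regulated. The part of the muscle, stromal and epithelial markers in the changes of the miR-23/27/24 arms was not tested.

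Members of a cluster share a primary transcript, and their ratios show how evenly they moved. In the chromosome 19 cluster, miR-27a-3p exceeded miR-23a-3p by log2 ratios of 1.52, 1.56 and 1.52 in control and 0.87, 0.99 and 1.07 in RUNX1 libraries. The guides thus drew closer in every RUNX1 library, from a ratio of 2.90 to 1.97. This was a move of -0.56 on the log2 scale, with an SD of 0.0201 in control and 0.103 in RUNX1 libraries. The exact permutation test gave p = 0.1, the smallest possible with 3 libraries per condition, and 0.2 after adjustment over the 12 ratios. In the chromosome 9 cluster, the log2 ratio of miR-27b-3p to miR-23b-3p was 4.99 ± 0.105 in control and 4.86 ± 0.129 in RUNX1 libraries (SD, n = 3 each; exact permutation test, p = 0.3), and the conditions overlapped. The difference between the clusters in this respect was not tested.

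Between the paralogs, miR-23a-3p gained on miR-23b-3p, from 70.9% to 72.7% of their joint counts in control to 74.4% to 77.0% in RUNX1 libraries. The log2 ratio moved by 0.34 without overlap (exact permutation test, p = 0.1, and 0.2 after adjustment). The ratio of miR-27a-5p to miR-27b-5p moved by 0.27 with overlap (exact permutation test, p = 0.6). Summing the near-identical paralogs before the fit, which removes the effect of reads assigned to the wrong one, gave log2 fold changes of 1.37 for miR-23a-3p with miR-23b-3p and 0.96 for miR-27a-3p with miR-27b-3p. The 3 ratios with miR-24-3p rest on its 0 to 7 counts. Their log2 values moved by 0.37 against miR-24-2-5p, 0.51 against miR-23a-3p and 0.85 against miR-23b-3p, and only the last had no overlap. With 1 in place of 0.5 added to each count they moved by -0.12, 0.02 and 0.35, all with overlap (exact permutation test, p = 0.4 for the last), so no direction is read from them.

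**Figure D3:**
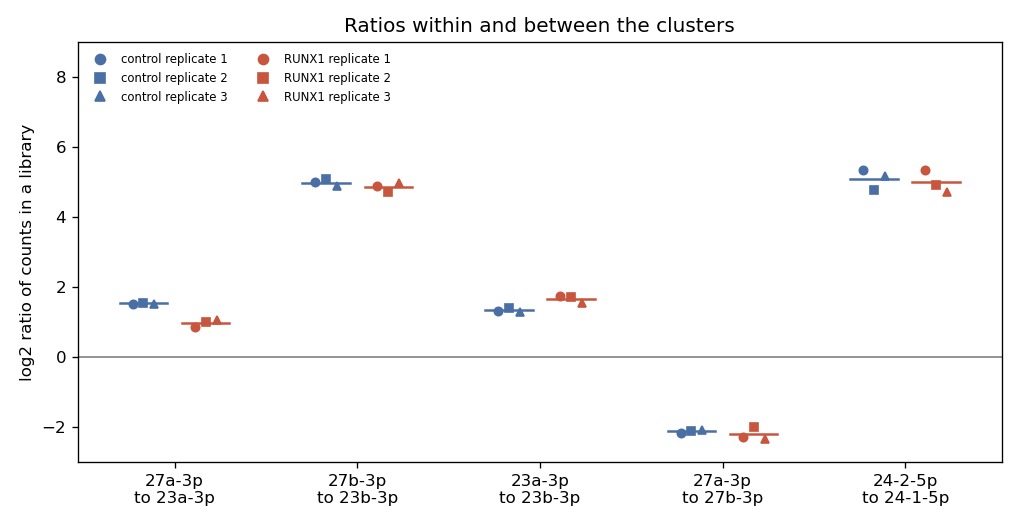
Log2 ratio of counts in each library for 5 pairs of arms, with control in blue, RUNX1 in red, a marker shape per replicate number and a bar at the mean of 3. The conditions are apart for miR-27a-3p to miR-23a-3p, which falls from 1.53 to 0.98, and for miR-23a-3p to miR-23b-3p, which rises from 1.34 to 1.67, and overlap for the other 3 pairs.

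Other microRNAs described as acting on the RUNX1 mRNA are miR-17-5p, miR-20a-5p and miR-106a-5p, which belong to a seed family of their own. With TMM scaling none of 3 was altered, beside 33.4% of all tested microRNAs up-regulated and 22.6% down-regulated. Their calls under other scalings are not given here. The median log2 fold change of all tested small RNAs moved from -0.06 to -0.26 with TMM factors from microRNAs and to -0.76 with library size only. miR-17-5p had 10966, 10813 and 11969 CPM in control and 7805, 7963 and 10384 CPM in RUNX1 libraries, a log2 fold change of -0.37 (95% interval -0.69 to -0.05). Its RUNX1 libraries were all below its control libraries, but the change was under the fold threshold. The log2 fold changes of miR-20a-5p and miR-106a-5p were -0.26 (95% interval -0.61 to 0.09) and 0.42 (95% interval -0.15 to 0.99). Among the seed and locus relatives of the clusters, 1 of 4 passed the count filter, miR-3074-3p. miR-23c, of the miR-23 seed family, had at most 3 counts in a library, and miR-3074-5p at most 1.

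The microRNAs whose log2 CPM over the 6 libraries was most like the sum of miR-23a-3p and miR-27a-3p were miR-145-5p, miR-330-5p and miR-652-3p, with Pearson correlations of 0.997, 0.994 and 0.994. For the sum of miR-23b-3p and miR-27b-3p they were miR-766-3p, miR-3607-3p and miR-340-5p, with correlations of 1.00, 0.999 and 0.999. The libraries form a pair of groups, so that any microRNA with a steady difference between the conditions and a like replicate 3 correlates highly, and the fold changes of the 6 ranged from 0.75 to 3.07 on the log2 scale. Myeloid microRNAs (miR-223-3p and both arms of miR-142) rose as well with TMM scaling, 3 of 3, beside 33.4% of all tested microRNAs up-regulated. Their sum was 13822 to 15530 CPM in control and 37113 to 54018 CPM in RUNX1 libraries. For miR-223-3p the log2 fold change was 0.91, with 1574 CPM in RUNX1 replicate 3 and 1383 CPM in control replicate 1. The lymphoid miR-150-5p, too low to pass the filter, had 0 to 0.527 CPM in control and 0.729 to 2.69 CPM in RUNX1 libraries, without overlap. The liver microRNA miR-122-5p had 0.124 to 1.05 CPM in control and 0.320 to 1.13 CPM in RUNX1 libraries, and the neuronal miR-124-3p and miR-9-5p had at most 0.263 CPM in sum.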

How the data were processed

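Small RNA libraries of K562 cells were made by the authors with the TruSeq Small RNA kit, read on a HiSeq2000, demultiplexed with CASAVA 1.8.2 and analysed on the OASIS platform with standard parameters. The submitters' processing notes name hg19. The deposited values are whole-number counts per small RNA. The aligner is not given in the sources used here. The files end in 5 summary lines, with a total of 0, which were left out. Library names carry other letters for control and RUNX1, so any preparation batch and condition cannot be told apart. RUNX1 replicate 1 carries the number of replicate 2 in its library name, and the number in its title was used.

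Counts were filtered with filterByExpr (minimum count 10, minimum total 15), scaled by TMM and compared by condition with the quasi-likelihood functions glmQLFit and glmQLFTest of edgeR 4.0.16 (R 4.3.3), with Benjamini-Hochberg adjustment over all 947 small RNAs. Standard errors were derived from the log2 fold change and the root of F. Ratios used counts plus 0.5 and exact permutation tests (scipy 1.17.1). DESeq2 1.42.0 was an alternative. The fit was also run on data simulated with known changes and the same dispersion for every small RNA, which is no test of the scaling of these libraries. P-values measure the spread between independent transductions of K562 cells. The intervals of the log2 fold changes were built from the standard errors of the same fit, so they include that spread and not counting error only. No replicate pair came within sampling noise (chi-square over its degrees of freedom, 10.2 to 556). Sequences and coordinates are from RefSeq GRCh38.p14 and GENCODE 29, and no coordinates of the files were used. All 10 members were named, with fixed lists of relatives, of microRNAs acting on RUNX1, of markers, and the 3 most like microRNAs per guide pair. Members and lists were chosen with earlier results of these data known.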

Additional observations from a re-analysis of the deposited data

How the results depend on the processing

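Library size only had the largest effect, with 120 small RNAs up-regulated and 521 down-regulated in place of 265 and 280, and with 3 member arms up-regulated and 2 down-regulated. Under it miR-27a-3p (0.18), miR-27b-3p (0.27) and miR-23b-3p (0.40) were no longer altered, miR-23a-5p turned to -0.105, and miR-27a-5p (-1.19) and miR-27b-5p (-1.27) were down-regulated. TMM factors from microRNAs gave 213 up-regulated and 345 down-regulated small RNAs and 1 member arm down-regulated, miR-27a-5p. Without a count filter 1 was down-regulated, miR-27b-5p, and miR-24-3p was counted as up-regulated on its 20 counts. Asking for an adjusted P-value and for a log2 change past 1 left 168 up-regulated small RNAs and 4 member arms, miR-23a-3p, miR-23b-3p, miR-24-2-5p and miR-24-1-5p. With each replicate left out, 6 to 7 member arms were up-regulated and 0 to 1 down-regulated. DESeq2 and RLE factors changed no member's call.

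With the replicate number as a block, 1 member arm was down-regulated, miR-27b-5p at -0.74, and no other member's call changed. The deviations of same-numbered libraries from their group means correlated at -0.0327, -0.0904 and 0.0178. No pairing was seen in these values, but so few cannot exclude one, and 1 library name carries another replicate's number.

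The log2 ratio of miR-24-2-5p to miR-24-1-5p turned from -0.0997 to 0.0761 with 1 added to each count and ranged from -0.279 to 0.0417 with a replicate left out. That of miR-24-3p to miR-24-2-5p turned from 0.368 to -0.124 with 1 added. With 1 added, those of miR-24-3p to miR-23a-3p and to miR-23b-3p fell from 0.513 to 0.0163 and from 0.85 to 0.353, and the last no longer separated the conditions. The other ratios and all shares kept their direction. The low counts of miR-24-1-5p, miR-24-3p and miR-23b-5p limit every value that rests on them. With at least 10 counts in every sample, 6 member arms were up-regulated and miR-24-1-5p was not tested.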
